A study of Mus musculus with 4 samples.

Results

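The genes described here are 10 that serve the cornified envelope, the insoluble protein shell that replaces the plasma membrane of a dying keratinocyte (KC) at the skin surface. They comprise 6 genes for envelope proteins (Ivl, Lce1h, Cnfn, Sbsn, Evpl and Ppl) and 4 genes for transglutaminases (Tgm1, Tgm2, Tgm3 and Tgm5), chosen by name among the 25814 genes of the deposited tables. All 10 passed the filter on low counts, although Tgm5 passed it through the Nfat5-/- libraries alone. The RNA came from KCs that were isolated from the tails of adult 129/sv mice and grown, untreated, in serum-free medium with 0.06 mM calcium. WT and Nfat5-/- animals gave 2 libraries each, labelled replicate 1 and replicate 2. Nfat5 encodes a transcription factor best known for the response to hypertonic stress, and the comparison asks which genes differ in RNA level when it is missing.

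The groups have limits as a model. Nfat5-/- animals lack the gene in the whole body and not only in KCs, and per the methods of the study WT siblings served as the control, with tails of both genotypes shipped on ice before the cells were isolated. Total gene reads per library ran from 16219445 to 23494436, so that 3 reads equal a CPM (reads scaled to the total of the library) of 0.128 to 0.185. The reads of Nfat5 itself did not follow the labels, with 408 and 929 reads in the WT libraries and 715 and 770 in those labelled Nfat5-/-, a log2 fold change of 0.09 (SE 0.26, n = 2 per genotype, edgeR adjusted p = 0.913). The reads cover the whole gene and are not resolved by exon, so they neither show nor contradict the deletion, and the groups are named by their labels throughout. Keratins of basal KCs were abundant, with Krt5 at 4990 RPKM or more and Krt14 at 5148 RPKM or more in every library, whereas Krt1 and Krt10, keratins of the layers above, did not exceed 0.811 and 0.854 RPKM. RPKM divides the exon reads of a gene by its exon length and by the size of the library, whereas the read numbers given below are total gene reads, which also hold intron reads.

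When KCs leave the basal layer, they synthesise envelope precursors and lay them down beneath the plasma membrane. Envoplakin (Evpl) and periplakin (Ppl) form the first scaffold there, involucrin (Ivl) is attached to it early, and late cornified envelope proteins such as the product of Lce1h reinforce the shell afterwards. Transglutaminases weld these proteins to each other by isopeptide bonds between the side chains of glutamine and lysine, in a calcium-dependent reaction at an active-site cysteine. Loss of TGM1 in humans causes lamellar ichthyosis, and loss of TGM5 causes acral peeling skin syndrome.

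The chemistry of the envelope can be read in the coding sequences. The codons around the active-site cysteine are shown for the 4 enzymes because this stretch is what makes them members of 1 enzyme family. Each run is 45 bases of coding sequence of GENCODE M21 (build GRCm38), 5′ to 3′, with the cysteine codon in capitals.
Tgm1: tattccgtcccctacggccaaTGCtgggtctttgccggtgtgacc
Tgm2: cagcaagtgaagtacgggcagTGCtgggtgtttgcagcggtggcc
Tgm3: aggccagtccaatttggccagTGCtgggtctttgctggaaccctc
Tgm5: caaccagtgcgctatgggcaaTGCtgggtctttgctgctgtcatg
The cysteine codon is number 376 in Tgm1 (exon 7 of 15, chr14:55709401-55709445, minus strand), 277 in Tgm2 (exon 6 of 13, chr2:158131338-158131382, minus strand), 273 in Tgm3 (exon 6 of 13, chr2:130029751-130029795, plus strand) and 283 in Tgm5 (exon 6 of 13, chr2:121070739-121070783, minus strand), where the coordinates give the whole run. Pairs of the 4 runs shared between 27 and 32 of the 45 bases, and no window of 59 bases, the read length, was common to any pair of the 4 transcripts.

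Glutamine, the residue on which the enzymes act first, takes 26.7% of the codons of Ivl (125 of 468), the fifth highest share among 21739 coding genes, whose median was 4.33%. The 60 bases with the most glutamine codons, 19 in all, lie in exon 2 of Ivl at chr3:92572301-92572360 on the minus strand (GRCm38), and are shown with these codons in capitals.
Ivl: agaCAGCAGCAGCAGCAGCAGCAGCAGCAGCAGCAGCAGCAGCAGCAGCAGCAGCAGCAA
Evpl (9.78%), Sbsn (9.53%) and Ppl (9.35%) were also rich in glutamine codons, and Lce1h (6.43%) and Cnfn (5.65%) lay nearer the median. The enzymes Tgm1 (3.44%), Tgm2 (3.50%) and Tgm3 (3.61%) were below it, and Tgm5 (5.52%) was above it. Ivl was also rich in lysine codons, the other partner of the bond, with 10% against a median of 5.35%.

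RNA of 3 of the 10 genes passed the test between genotypes, all higher in the libraries labelled Nfat5-/-: Cnfn at 4.20 times the WT mean RPKM, Tgm3 at 5.66 times and Lce1h at 2.21 times. Over all 12614 genes tested by the quasi-likelihood test of edgeR on total gene reads, 0.943% were called higher at an adjusted p under 0.05, and 1.27% were called in either direction. At an unadjusted p under 0.05, 7 of the 10 were higher, or 6 of the 9 without Tgm5, against 8.17% of all genes. Tgm5 is set apart in these counts because it passed the filter through the libraries where it was high. Both Nfat5-/- libraries had a higher RPKM than both WT libraries in 8 of the 10 genes, or 7 of the 9 without Tgm5, as in 21.6% of all genes tested, and Evpl and Sbsn overlapped. A separation of at least 2-fold in mean RPKM with no overlap was seen in 7 of the 10, or 6 of the 9 without Tgm5, against 3.62% of all genes. Without Nfat5-/- replicate 2 it was seen in 4 of the 10, or 3 of the 9, against 3.56%. The median log2 fold change was 1.15 over the 10 genes, 1.12 without Tgm5 and -0.010 over all genes tested. With 2 libraries against 2, an exact permutation test of a single gene cannot go below p = 0.333, so that only the fit across all genes can make a call.

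**Figure D1:**
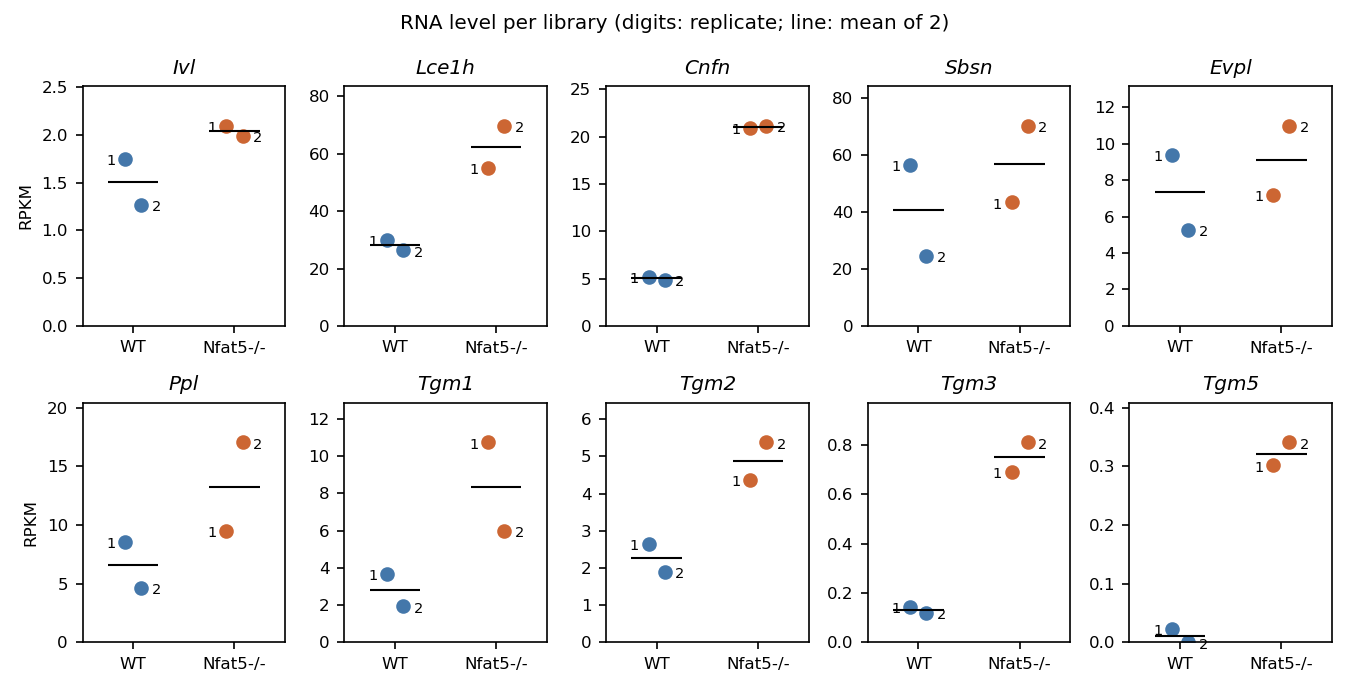
RPKM of each of the 10 genes (vertical axis, linear, from 0, with its own scale for each gene) in the WT and Nfat5-/- libraries; digits give the replicate and lines the mean of 2 libraries. Genotypes overlap for Sbsn and Evpl alone, and WT replicate 1 lies above WT replicate 2 in every gene.

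Among the envelope proteins, Cnfn stood out by its agreement between replicates. Cnfn encodes cornifelin, a small protein of the envelope whose gene lies at chr7:25367620-25369724 on the minus strand (GRCm38, 7 exons listed). Its level was 5.19 and 4.84 RPKM in the WT libraries and 20.96 and 21.1 RPKM in the Nfat5-/- libraries. The WT libraries held 62 and 80 total gene reads of Cnfn and the Nfat5-/- libraries 366 and 292. Replicates of a genotype were thus nearly equal, and the lower Nfat5-/- library was 4.04 times the higher WT library. The log2 fold change was 2.07 (SE 0.17, 95% interval 1.68 to 2.47, n = 2 per genotype, edgeR adjusted p = 0.00579), which ranked Cnfn sixth of the genes tested by p. The adjusted p lay between 1.12e-19 and 0.0556 over the alternative analyses.

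Lce1h encodes a late cornified envelope protein and lies within the epidermal differentiation complex (chr3:92763215-92765065, minus strand, 2 exons), as does Ivl. It was read at 30.1 and 26.3 RPKM in the WT libraries and at 55.2 and 69.7 RPKM in the Nfat5-/- libraries, with 353 and 412 total gene reads for WT and 941 and 945 for Nfat5-/-. Both WT libraries were low and both Nfat5-/- libraries high, with no overlap and a log2 fold change of 1.17 (SE 0.16, 95% interval 0.80 to 1.55, n = 2 per genotype, edgeR adjusted p = 0.0251, and 8.79e-14 to 0.132 over the alternatives). Of its 59-base windows, 12.2% also occur in other genes, most often Lce1i, Lce1j and Lce1g, and 84.3% of its exon reads were placed uniquely. The ratio of means over the unique reads alone was also 2.21.

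Ivl, at chr3:92570902-92573735 on the minus strand (2 exons), was expressed far below Lce1h. WT libraries held 1.75 and 1.27 RPKM of its RNA and Nfat5-/- libraries 2.10 and 1.99 RPKM, with 54 to 97 total gene reads per library. Both Nfat5-/- libraries were above both WT libraries, by a margin smaller than the gap between the WT replicates. The log2 fold change of 0.47 (SE 0.26, 95% interval -0.14 to 1.09, n = 2 per genotype) did not pass the test (edgeR adjusted p = 0.461).

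Sbsn encodes suprabasin, a secreted protein of differentiating KCs and a transglutaminase substrate (chr7:30751471-30756134, plus strand, 8 exons). It was among the most abundant of the 10, with values of 56.5 and 24.5 RPKM for WT and of 43.3 and 70.1 RPKM for Nfat5-/-. WT replicate 1 exceeded Nfat5-/- replicate 1, so the genotypes overlapped, and the 2 WT libraries differed by 2.31 times. The log2 fold change was 0.51 (SE 0.38, 95% interval -0.38 to 1.40, n = 2 per genotype, edgeR adjusted p = 0.597).

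The 2 plakins of the scaffold shared a layout over the libraries. Evpl (chr11:116220559-116238077, minus strand, 22 exons) was read in WT KCs at 9.40 and 5.26 RPKM and in Nfat5-/- KCs at 7.21 and 10.98 RPKM. Ppl (chr16:5086291-5132421, minus strand, 22 exons) was read in WT KCs at 8.56 and 4.66 RPKM and in Nfat5-/- KCs at 9.52 and 17.0 RPKM. In both genes WT replicate 1 was above WT replicate 2 and Nfat5-/- replicate 2 was above Nfat5-/- replicate 1; the genotypes overlapped in Evpl, and in Ppl they were apart by a factor of 1.11 between the nearest libraries. Neither gene passed the test, with log2 fold changes of 0.33 for Evpl (SE 0.29, 95% interval -0.36 to 1.02, edgeR adjusted p = 0.664) and 1.03 for Ppl (SE 0.34, 95% interval 0.23 to 1.83, edgeR adjusted p = 0.239).

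**Figure D2:**
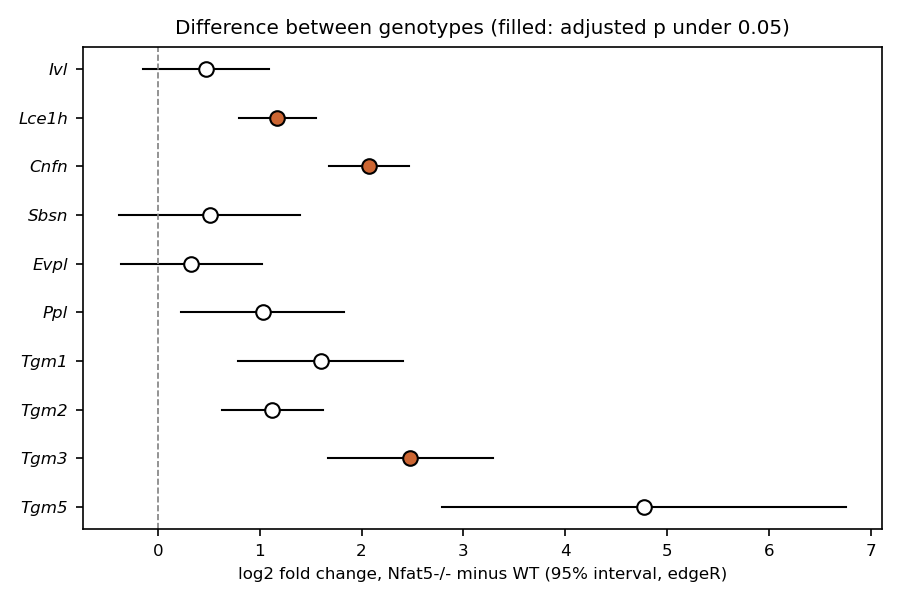
The log2 fold change of each gene (horizontal axis, Nfat5-/- minus WT, edgeR) with its 95% interval as a line; filled points have an adjusted p under 0.05. The intervals of Ivl, Sbsn and Evpl include 0, and those of Cnfn, Lce1h, Ppl, Tgm1, Tgm2 and Tgm3 lie above it. Cnfn, Lce1h and Tgm3 are filled. Tgm5 is set apart, because it passed the filter through the Nfat5-/- libraries alone and its interval depends on the prior count added to the 0.

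Of the 4 transglutaminases, Tgm3 passed the test. Tgm1, Tgm2 and Tgm3 had both Nfat5-/- libraries above both WT libraries, as 21.6% of all genes did, and so did Tgm5, whose place among the tested genes rests on those libraries. Their summed level reached 6.48 and 3.94 RPKM for WT but 16.1 and 12.5 RPKM for Nfat5-/-, most of it from Tgm1 and Tgm2. The median log2 fold change was 2.04 for the 4 enzymes (1.60 without Tgm5) and 0.77 for the 6 envelope proteins.

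Tgm1 encodes the membrane-anchored enzyme of the KC (chr14:55700009-55713926, minus strand, 24 exons listed). WT libraries gave 3.67 and 1.93 RPKM for it and Nfat5-/- libraries 10.7 and 6.0 RPKM, with total gene reads of 194 and 139 and of 823 and 362. Replicate 1 was the higher library in both genotypes, and the genotypes did not overlap. The ratio of means was 2.99 and the log2 fold change 1.60 (SE 0.35, 95% interval 0.79 to 2.41, n = 2 per genotype), which did not pass the test (edgeR adjusted p = 0.0874). Replicates within a genotype differed by 1.90 times in WT and by 1.79 times in Nfat5-/- KCs, more than for Cnfn or Lce1h. Exons of Tgm1 overlap those of Gm49067 on the other strand, and the strand option of the counting is not named beyond the default settings of the program.

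Tgm2 encodes the widely expressed tissue transglutaminase (chr2:158116402-158146436, minus strand, 16 exons). WT libraries gave 2.64 and 1.90 RPKM and Nfat5-/- libraries 4.36 and 5.37 RPKM, with no overlap. The log2 fold change of 1.12 (SE 0.21, 95% interval 0.63 to 1.62, n = 2 per genotype) missed the threshold narrowly (edgeR adjusted p = 0.0601). Its reads are less certain than those of the other genes: exons of Rprd1b and Gm20412 overlap it on the opposite strand, 18.1% of its 59-base windows are shared with them, and 29.5% of its exon reads were placed uniquely. Of its reads across a splice junction, by contrast, 97.3% were unique. These numbered 31 and 28 in the WT libraries and 81 and 77 in the Nfat5-/- libraries, the same order as for all reads.

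Tgm3 encodes a soluble transglutaminase of late differentiation and hair (chr2:130012349-130050399, plus strand, 13 exons). Its level was low, with 0.145 and 0.120 RPKM for WT and 0.693 and 0.811 RPKM for Nfat5-/-. Each WT library held 12 total gene reads and each Nfat5-/- library 74, of which 10, 11, 69 and 64 were the exon reads behind the RPKM. Replicates were close and the genotypes far apart, with a log2 fold change of 2.48 (SE 0.35, 95% interval 1.67 to 3.29, n = 2 per genotype, edgeR adjusted p = 0.0252, and 3.07e-09 to 0.212 over the alternatives).

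Tgm5 encodes a further epidermal transglutaminase (chr2:121046111-121085841, minus strand, 13 exons). It had 1 and 0 total gene reads in the WT libraries and 20 and 17 in the Nfat5-/- libraries, with 0.0230, 0, 0.302 and 0.341 RPKM in the same order. Reads summed by genotype, 1 against 37, and scaled to the library totals gave a ratio of 33.2 with an exact interval (Clopper-Pearson) of 5.6 to 1.35e+03 that covers counting error only. The edgeR log2 fold change of 4.77 (SE 0.84, n = 2 per genotype) depends on the prior count added to the 0 and is no bound. Its adjusted p of 0.05022 was just above the threshold.

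Per length of exon, the order of the 10 genes was the same in both genotypes from Tgm1 downwards. In WT KCs the mean RPKM fell from Sbsn (40.5, SD 22.7, n = 2) and Lce1h (28.2, SD 2.68) through Evpl (7.33), Ppl (6.61) and Cnfn (5.01) to Tgm1 (2.80), Tgm2 (2.27), Ivl (1.51), Tgm3 (0.133) and Tgm5 (0.0115). Neighbours with overlapping libraries were Sbsn and Lce1h, Evpl and Ppl, Ppl and Cnfn, and Tgm1 and Tgm2. In Nfat5-/- KCs Lce1h (62.4, SD 10.3, n = 2) and Sbsn (56.7, SD 18.9) led with overlapping libraries. Cnfn (21.04, SD 0.117) followed them, above both plakins and apart from its neighbours on either side. Ppl (13.3) and Evpl (9.09) overlapped, as did Evpl and Tgm1 (8.36), and then came Tgm2 (4.87), Ivl (2.04), Tgm3 (0.752) and Tgm5 (0.321). Cnfn made up 4.40% and 6.84% of the summed RPKM of the 10 genes in WT and 13.6% and 10.4% in Nfat5-/- libraries, while Evpl made up 7.97% and 7.44% and then 4.67% and 5.40%.

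The libraries of a genotype differed in the same direction for most of these genes. WT replicate 1 was above WT replicate 2 in 9 of the 9 genes with reads in both, as in 49.4% of all such genes tested, and by over 1.5 times in 4 of the 9 (Tgm1, Evpl, Ppl and Sbsn) against 5.99%. Tgm5 had 1 read in the first and 0 in the second. Nfat5-/- replicate 2 was above Nfat5-/- replicate 1 in 8 of the 10, with Tgm1 and Ivl the exceptions, against 43% of all genes with reads in both. The summed level of the 10 genes was 118 and 70.7 RPKM for WT and 154 and 203 RPKM for Nfat5-/-. The number of calls, among these genes and among all, changed when a library was left out. Without WT replicate 1, edgeR called 8 of the 10 genes, Tgm5 among them (1.53% of all genes tested were called higher), and without WT replicate 2 it called 3 (2.18%). Without Nfat5-/- replicate 1 it called Cnfn alone (0.217% of all genes). Lce1h then had a log2 fold change of 1.35 (adjusted p = 0.0558) and Tgm3 one of 2.66 (adjusted p = 0.102), both above their values with all 4 libraries. Without Nfat5-/- replicate 2 edgeR called 0 of the 10 (0.0995% of all genes), while the log2 fold changes were 2.05 for Cnfn (adjusted p = 0.0556), 2.29 for Tgm3 (0.212) and 0.98 for Lce1h (0.132). At an unadjusted p under 0.05, 6 of the 10 (5 of the 9 without Tgm5) were higher in that fit, against 4.38% of all genes. The lone library of a genotype is assumed in such fits to vary like the other group.

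With all 4 libraries, Cnfn, Lce1h and Tgm3 were also called, and no other of the 10, with limma on log2 RPKM and a pseudocount of 1 (0.727% of all genes called higher) or 0.1 (0.751%), with exon reads alone (1.07%) and with at least 10 counts asked in every library (0.958%), a filter that leaves Tgm5 out. Scaling by library totals (1.24%) added Tgm2. Tgm5, set apart because it passed the filter through the Nfat5-/- libraries alone, fell under the threshold with that scaling, with RLE scaling (1.04%) and with uniquely placed exon reads (1.4%). DESeq2 added Tgm1 and Tgm2 (2.34%). With no filter on low counts edgeR called 8 of the 10, all but Ivl and Evpl (4.01%), Tgm5 among them. The log2 fold changes hardly moved in that fit. Sbsn was called there although its genotypes overlap, at an SE of 0.13 against 0.38 with the filter. The lowest adjusted p given above for Cnfn, Lce1h and Tgm3 came from that fit too.

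**Figure D3:**
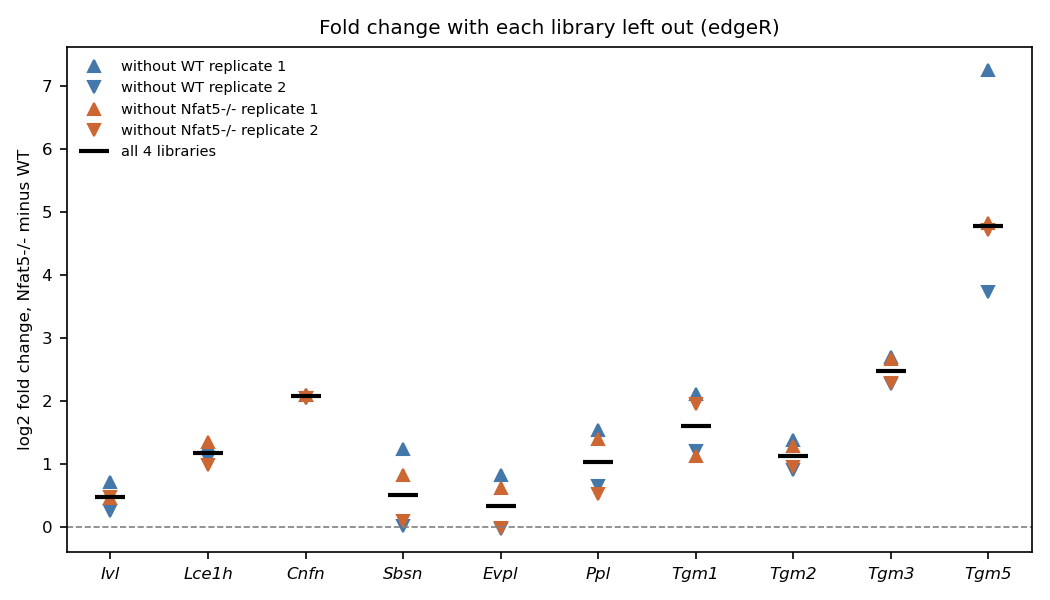
The edgeR log2 fold change of each gene (vertical axis, Nfat5-/- minus WT) with all 4 libraries (bars) and with each library left out in turn (triangles). Points of Cnfn nearly coincide, those of Sbsn run from 0.02 to 1.24, and Evpl falls just below 0 without WT replicate 2 and without Nfat5-/- replicate 2.

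Reads across splice junctions come from processed RNA and hold no intron or unspliced antisense signal. Of the 10 genes, 8 had at least 10 such reads in all, and in 6 of these 8 both Nfat5-/- libraries had more spliced reads, scaled to total gene reads, than both WT libraries, against 22.6% of all genes with as many. The 6 were Cnfn, Lce1h, Tgm1, Tgm2, Tgm3 and Ppl, and Evpl and Sbsn overlapped, as they had in RPKM. Cnfn had 30 and 31 spliced reads in WT and 154 and 128 in Nfat5-/- libraries. Tgm3 had 3 and 1 spliced reads in WT and 17 and 15 in Nfat5-/- libraries. Tgm5 had 0 and 0 in WT and 5 and 4 in Nfat5-/- KCs. Ivl had 3 in all 4 libraries together, which is too few to compare.

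**Figure D4:**
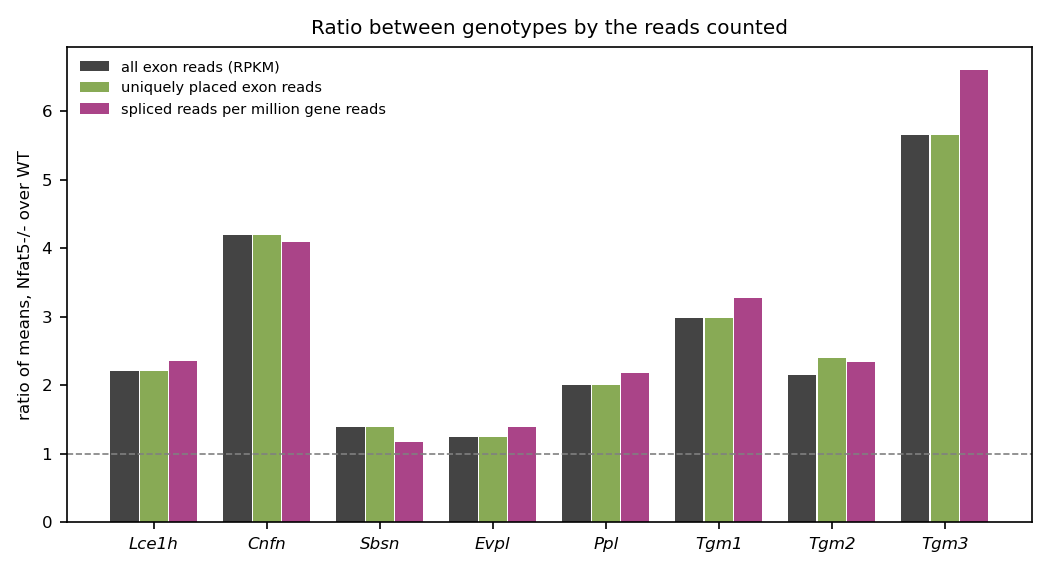
Ratio of the Nfat5-/- mean over the WT mean (vertical axis, from 0) by the reads counted, for the 8 genes with at least 10 spliced reads; each bar is a ratio of means of 2 libraries, without error bars. Cnfn has ratios of 4.20, 4.20 and 4.09; all exon and spliced reads give 5.66 and 6.61 for Tgm3 and 1.40 and 1.18 for Sbsn.

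Promoter sequence was available for 7 of the 10 genes in the RefSeq table (GRCm38.p6), while Tgm2, Evpl and Ppl had no entry. The 250 bases before the start were searched for 3 sets of letters on both strands: TGANTCA, bound by AP-1 factors that drive many KC genes, TGGAAA, the core bound by NFAT factors including NFAT5, and AACCGGTT, bound by grainyhead-like factors. TGGAAA or its complement was found for Cnfn (125 to 120 bases before the start) and Tgm3 (TTTCCA, 174 to 169 bases before it). It occurs in 18.6% of all 32851 windows of this length, so a match is a description of the letters and not of binding. The 2 windows are shown, 5′ to 3′ along the gene, with the match in capitals, for Cnfn at chr7:25369725-25369974 (minus strand) and for Tgm3 at chr2:130012090-130012339 (plus strand).
Cnfn: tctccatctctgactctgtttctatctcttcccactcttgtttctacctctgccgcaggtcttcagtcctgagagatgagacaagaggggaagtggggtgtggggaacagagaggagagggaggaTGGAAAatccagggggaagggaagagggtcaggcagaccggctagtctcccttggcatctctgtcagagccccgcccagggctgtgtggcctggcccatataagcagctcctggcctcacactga
Tgm3: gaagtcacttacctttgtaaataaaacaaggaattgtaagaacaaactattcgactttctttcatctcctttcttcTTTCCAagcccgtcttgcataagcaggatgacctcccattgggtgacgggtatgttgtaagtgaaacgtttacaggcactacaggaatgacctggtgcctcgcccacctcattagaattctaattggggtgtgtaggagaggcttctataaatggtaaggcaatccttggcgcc
TGANTCA was found for Ivl (TGACTCA, 116 to 110 bases before the start) and Sbsn (TGAATCA, 119 to 113 bases before it), against 6.75% of all windows. The window of Ivl, a textbook AP-1 target in KCs, is shown for comparison (chr3:92573736-92573985, minus strand).
Ivl: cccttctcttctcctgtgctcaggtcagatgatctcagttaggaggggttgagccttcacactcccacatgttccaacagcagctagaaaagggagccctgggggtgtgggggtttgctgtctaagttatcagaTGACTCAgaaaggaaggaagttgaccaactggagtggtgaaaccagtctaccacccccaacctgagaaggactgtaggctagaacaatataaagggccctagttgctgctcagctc
AACCGGTT was in none of the 8 windows of these genes and in 0.116% of all windows.

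Beyond the 10 genes, a list of 34 other envelope precursors was read in the same fit. Over all genes tested, edgeR called 0.943% higher and 1.27% in either direction, and 14.6% had an unadjusted p under 0.05 in either direction. DESeq2 called 2.34% higher, and limma 0.727% with a pseudocount of 1 or 0.751% with 0.1. These shares apply to all the lists below. Of the 19 precursors tested, edgeR called 2 higher and 0 lower in Nfat5-/- KCs (8 at an unadjusted p under 0.05, 2 called by DESeq2, 1 by limma), with a median log2 fold change of 0.60. The 2 were Krtdap, a secreted protein of differentiating KCs, and Anxa1, an abundant annexin that is a transglutaminase substrate. Krtdap gave 2.82 and 1.63 RPKM for WT and 10.7 and 14.2 RPKM for Nfat5-/- (log2 fold change 2.53, SE 0.34, n = 2 per genotype, edgeR adjusted p = 0.0251). Anxa1, the most abundant of the list, had means of 1564 RPKM for WT and 2334 RPKM for Nfat5-/- (log2 fold change 0.60, SE 0.09, n = 2 per genotype, edgeR adjusted p = 0.0367). Loricrin (Lor), the main protein of the mature mouse envelope, had means of 2.56 and 5.00 RPKM and did not pass (log2 fold change 1.0, SE 0.26, n = 2 per genotype, edgeR adjusted p = 0.134). Of 20 other late cornified envelope genes, 7 were tested and 0 were called by edgeR, DESeq2 or limma (3 at an unadjusted p under 0.05), and the highest mean over all 4 libraries among them was 7.69 RPKM, that of Lce1g.

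The other 5 genes of the transglutaminase family were nearly silent. Tgm4 and F13a1 alone had enough reads to be tested, though 2 of the Tgm4 reads were exon reads and the others lay in introns, and 0 were called by edgeR, DESeq2 or limma, with 0 at an unadjusted p under 0.05. F13a1, the most abundant, did not exceed 0.214 RPKM in any library. Of 6 genes for proteases and inhibitors that act on transglutaminases or their substrates, 0 were called by edgeR (3 at an unadjusted p under 0.05) or limma and 1, Casp14, by DESeq2. Ctsd, which encodes cathepsin D and led this list in abundance, gave 483 and 501 RPKM for WT and 567 and 701 RPKM for Nfat5-/-. Casp14 is a protease of cornification (log2 fold change 1.35, SE 0.28, n = 2 per genotype, edgeR adjusted p = 0.0811).

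Markers of the KC layers and of other cells were read beside these values, because in a bulk culture more cells of a kind and more RNA per cell cannot be told apart. Among 6 basal KC markers 0 were called by edgeR, DESeq2 or limma (1 at an unadjusted p under 0.05), with a median log2 fold change of -0.05. Among 6 suprabasal KC markers edgeR called 3 higher in Nfat5-/- KCs, against 0.943% of all genes (3 called by DESeq2, 2 by limma). They were Krtdap, which is also on the list of envelope precursors, Dsg1a (log2 fold change 2.34, edgeR adjusted p = 0.0416) and Calml3 (3.33, edgeR adjusted p = 0.0416). The summed level of the 6 was 4.39 and 2.79 RPKM for WT and 13.6 and 19.1 RPKM for Nfat5-/-. Most of each sum was Krtdap, at 2.82 and 1.63 RPKM for WT and 10.7 and 14.2 RPKM for Nfat5-/-. Krt10 lay in the other direction, at 0.854 and 0.684 RPKM for WT and 0.550 and 0.520 RPKM for Nfat5-/-, and did not pass (log2 fold change -0.49, SE 0.32, edgeR adjusted p = 0.547). Of 6 smooth muscle markers, 4 were tested and edgeR called all 4 higher (Acta2, Tagln, Cnn1 and Myh11), against 0.943% of all genes. DESeq2 called the same 4, and limma called 2 with a pseudocount of 1 and 3 with 0.1. The sums were 184 and 151 RPKM for WT and 518 and 819 RPKM for Nfat5-/-, while Des and Actg2 did not exceed 0.0199 and 0.168 RPKM. Calml3 and Myh11 passed the filter on low counts through the Nfat5-/- libraries alone, as Tgm5 did. Of 5 melanocyte markers, 4 were tested and edgeR called Tyrp1 lower (2 called by DESeq2, 1 by limma), with sums of 7.29 and 6.99 RPKM for WT and 2.04 and 2.89 RPKM for Nfat5-/-. Fibroblast markers summed to 0.409 to 1.13 RPKM, endothelial markers to 0.738 to 0.895 RPKM and immune markers to 1.12 to 2.41 RPKM, and edgeR tested 2 of the 6, 3 of the 5 and 1 of the 4 genes of these lists. Of the genes tested, 0 were called by edgeR, DESeq2 or limma and 0 had an unadjusted p under 0.05 in edgeR. Itgam, another immune marker, was not analysed here. The part of these cells in the levels of the 10 genes was not tested.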

How the data were processed

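RNA of cultured tail KCs from WT and Nfat5-/- 129/sv mice (2 libraries each) was poly(A)-selected and sequenced. The authors mapped 59-base single-end reads to GRCm38 with CLC Genomics Workbench at its default settings and deposited, per gene and library, whole-number counts of total gene, exon, unique, intron and junction reads together with RPKM, computed by the program. The annotation release is not given in the sources used here, nor is the strand option named beyond those defaults. The study describes sibling mice without tying a library to an animal, so p-values measure the spread between these samples, which may be technical.

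Total gene reads were fitted with edgeR 4.0.16 (filterByExpr, TMM, quasi-likelihood test, genotype as the only term, R 4.3.3), with Benjamini-Hochberg adjustment over 12614 genes and a threshold of 0.05. The procedure was tested on simulated data. RPKM gave levels, and separations of at least 2-fold with no overlap. Alternatives used DESeq2 1.42.0, limma 3.58.1, other scaling, filters and read classes, a replicate block, and each library left out. The 10 genes, the wider gene lists and the rule for naming genes (the 10, each listed gene past the threshold, the most abundant gene of a list, and Nfat5) were chosen with earlier results of these data known. Lor, Lce1g, Tgm4, Casp14, Krt1, Krt10, Des and Actg2 were named after their values were seen. Gene spans equalled those of GENCODE M21 for all 10 genes. Codon shares and shared windows came from that release, and promoters from RefSeq.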

Additional observations from a re-analysis of the deposited data

Results flagged for a closer look

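Intron reads, which are part of total gene reads but not of RPKM, were not compared on their own in the report. Those of Tgm3 were more frequent in the Nfat5-/- libraries than in WT, which serve as the control. There were 2 and 1 intron reads in the WT libraries and 5 and 10 in the Nfat5-/- libraries, or 3 against 15 in all. Scaled to total gene reads the ratio was 4.49, with an exact interval (Clopper-Pearson) of 1.27 to 24.2 that covers counting error only. Tgm3 was picked from the 10 genes because these same reads were higher in both Nfat5-/- libraries, so the interval is no test of a difference. The ratio for the exon reads of the gene, counted apart, was 5.69 (21 against 133 reads, interval 3.57 to 9.49).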

How the results depend on the processing

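Over 139 values, each 1 of the 10 genes under 1 alternative, 115 kept their direction and side of the threshold, 17 newly passed it, 5 no longer did and 2 changed sign. The changes of sign were both in Evpl, which was not called, whose log2 fold change was 0.33 with all libraries and ran from -0.04 to 0.82 when 1 was left out, at -0.04 without WT replicate 2 and -0.02 without Nfat5-/- replicate 2. With the design described above, edgeR called 160 genes and 3 of the 10. Without the filter on low counts 1137 genes (723 higher, 4.01%) and 8 of the 10 were called, and with DESeq2 420 genes (299 higher) and 5 of the 10, namely Cnfn, Lce1h, Tgm1, Tgm2 and Tgm3. Scaling by library totals called 5 of the 10 (1.24% of all genes higher), adding Tgm2 (edgeR adjusted p = 0.0441) and Tgm5 (0.038), which passed the filter through the Nfat5-/- libraries alone. Leaving out 1 library called from 16 to 478 genes and from 0 to 8 of the 10, and left from 4 to 8 genes at least 2-fold apart with no overlap, against 7 with all libraries (3 to 7 against 6 without Tgm5), while 3.56% to 4.74% of all genes tested did so with 1 library left out. The 4 came without Nfat5-/- replicate 2 (3.56% of all genes). Cnfn, Lce1h and Tgm3 were called under every alternative that kept all 4 libraries. The largest shift of the median of all genes was -0.030, under library totals.

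Same-numbered libraries of the 2 genotypes share only a number in the labels. Their deviations from the group means correlated at -0.0652 over 12614 genes, which does not show pairing. A replicate block in the fit gave 132 called genes (96 higher, 0.761%) and 4 of the 10, adding Tgm1 (log2 fold change 1.59, adjusted p = 0.0115).

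A minimum of 10 counts in every library left Tgm5 out. The RPKM floor of 0.1 in at least 2 libraries for limma was chosen after seeing the data. Reads were few for Tgm3 and Tgm5, with 12 or fewer per WT library, and for Ivl, with 54 to 97 per library. Whether depth limited the calls was not tested.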
